A study of Homo sapiens with 6 samples.

Results

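The other long noncoding RNAs of HepG2 chromatin-associated RNA (caRNA) were taken as all tabulated positions inside GENCODE v44 genes of type lncRNA, on the strand of the gene, after leaving out NEAT1, MALAT1, KCNQ1OT1 and GAS5 and every position inside an annotated snoRNA, scaRNA, snRNA or misc_RNA gene. They held 24365 of the 387463 positions of the series, in 418 of 18862 annotated lncRNA genes. Nm-mut-seq was performed on caRNA of the HepG2 line, which derives from a human hepatocellular tumour, in 3 biological replicates. After adapter ligation, the RNA of a replicate was split into both reverse transcription reactions. In the imbalanced dNTP reaction dATP was supplied at 1 mM and each other dNTP at 2 µM, a supply under which G, A or C carrying a 2′-O-methyl group (Nm) is read as T. In the balanced dNTP reaction (input) each dNTP was supplied at 1 mM. All 6 libraries shared the same untreated cells and the same removal of ribosomal RNA and of RNA below 200 nt. The mutation ratio of a position is its share of reads with T in all reads covering it.

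lncRNAs are transcribed by RNA polymerase II, and many are retained on chromatin while they are being made. A class of them, the SNHG genes, are host transcripts whose introns are processed into small nucleolar RNAs. Box C/D snoRNAs guide the methyltransferase fibrillarin to 2′-hydroxyl groups of ribosomal RNA and other targets, and RNase P RNA, spliceosomal RNA and ribosomal RNA are themselves structured RNAs that lie inside or beside genes annotated as lncRNA.

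Of these positions 8210 were listed under imbalanced dNTP and 17236 under balanced dNTP, with 1081 in both. A position was listed under imbalanced dNTP only with 3 or more reads with T in at least 1 library, whereas 1 such read was enough under balanced dNTP, and depth was at least 5 in every library. Summed depth over the listed lncRNA positions was 324718 to 438578 reads per imbalanced dNTP library and 395630 to 588591 per balanced dNTP library, and the median depth was 10 to 15 and 9 to 13 reads. The listed base equalled the hg38 base at all 387463 positions. Of 17 hepatocyte marker genes 16 had listed positions, and none of 15 markers of other cell types did.

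Sites were called by the criteria of the study on depth (10 or more reads), reads with T (3 or more) and mutation ratio (more than 3 times the input of the same replicate) in all 3 replicates. The further criterion against an unmodified spike-in was not applied, so a called site here is a candidate, not one shown to exceed the mutation level of imbalanced dNTP itself. The criteria called 514 lncRNA sites in 41 genes, or 16.4% of the 3130 listed lncRNA positions of sufficient depth. Of these sites 257 exceeded a measured input, and the other 257 were not listed under balanced dNTP and had their input taken as 0. Over the whole series 26.7% of such positions were called. With the libraries exchanged, 48 lncRNA positions passed, beside 514 called, and 297 positions of the whole series passed, beside 29651 called. Without replicate 2 the criteria called 837 sites in 70 genes, and without replicate 1 or 3 they called 732 and 638.

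For each of the 10 genes with most called sites, the called site with the highest mutation ratio among those with a lowest depth of at least 50 reads (at least 10 reads in SNHG14, where none reached 50) shows what kind of sequence carried the sites. Each is written 5′ to 3′ on its own strand from hg38, the site is the 11th base, and capitals mark every called base of the window.
MIR663AHG, intron, chr20:26208496-26208516, minus strand: tGCcGaGtcGCgaccggtgcg
ENSG00000259001, exon, inside RPPH1, chr14:20343069-20343089, minus strand: CtaCtCtcctCcGCCCAtttt
SNHG1, exon, inside SNORD31, chr11:62853364-62853384, minus strand: tgagttgaatACcGCCCCaGt
SNHG5, exon, beside SNORD50A, chr6:85677283-85677303, minus strand: cttCtGAGAtGgaccgttata
ENSG00000280441, intron, inside RNA45SN3, chr21:8391804-8391824, plus strand: cggccctttcCCcGaggcgtc
ENSG00000278996, intron, inside RNA45SN2, chr21:8216329-8216349, plus strand: atgggcgagcGccGttctgaa
SNHG14, exon, chr15:25086440-25086460, plus strand: ggaagttgttGgatcccttct
ENSG00000233891, intron, chr2:59603646-59603666, minus strand: gGtttcttacCtAGcaaagca
SNHG17, exon, inside SNORA71A, chr20:38427433-38427453, minus strand: tctgtttctgCtcCtGcAtCC
LINC02694, intron, chr15:39015809-39015829, plus strand: caAagactatACtttcaggga
The windows of RPPH1, SNORD31 and the base beside SNORD50A hold several called bases in a row, whereas the SNHG14 window holds a single called G.

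The called sites were concentrated in few genes. MIR663AHG held 154, ENSG00000259001 108, SNHG1 72, SNHG5 44, ENSG00000280441 22 and ENSG00000278996 18, together 81.3% of the 514 sites. SNHG14 followed with 17, ENSG00000233891 with 8 and SNHG17 with 6, and 5 each lay in LINC02694, SNHG29, ENSG00000290039 and ENSG00000227088. PURPL and ENSG00000261069 held 4 each, and DANCR, ENSG00000287614 and ENSG00000232034 held 3 each. Of all 41 genes, 18 had a single called site, and 195 further genes had listed imbalanced dNTP positions and no called site. The genes with most listed positions were others. ENSG00000227088 had 1428 listed imbalanced dNTP positions and SNHG14 1046, and the leading 6 genes by listed positions held 53.4% of all 8210. Of the positions in ENSG00000227088 and SNHG14 only 344 and 430 had the depth to be called.

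**Figure D1:**
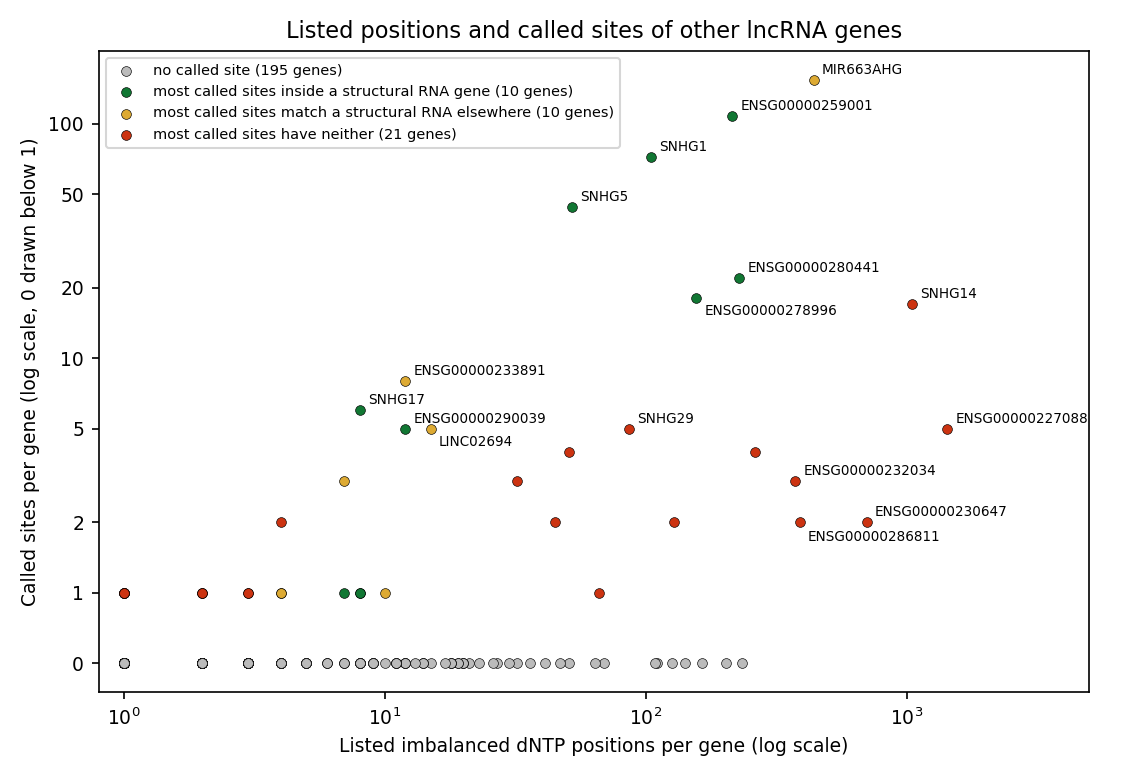
Each point is a lncRNA gene, with its listed imbalanced dNTP positions on the x axis and its called sites on the y axis (both log scales, genes without a called site drawn below 1). Colour gives what most of its called sites lie in, and MIR663AHG with 154 called of 441 listed stands far above ENSG00000227088 with 5 of 1428. The listed positions differ in depth, and 407 of the 441 but only 344 of the 1428 had the depth to be called.

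By location the called sites fell into 5 classes. Inside RPPH1 lay 105 sites, inside RefSeq snoRNA, scaRNA or snRNA genes 128 and inside RefSeq 45S pre-rRNA genes 40. Another 175 lay outside such genes but in sequence that matched a structural RNA of another locus (at least 50 aligned nt at 85% identity or more within 50 nt on either side, either strand), and 66 had neither. These classes and this order were defined after the site positions were known, so they are descriptions. Reads were allowed up to 4 alignments, and reads of a repeated sequence cannot be assigned to 1 copy by these counts.

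ENSG00000259001 (chr14:20343048-20343685, minus strand) overlaps RPPH1, the RNA subunit of RNase P, which cleaves the 5′ leader from transfer RNA precursors. GENCODE annotates RPPH1 (chr14:20343075-20343407) as a ribozyme, so its positions stayed among the lncRNA positions. All 108 called sites of ENSG00000259001 were exonic, 105 were inside RPPH1 and the other 3 lay 1 or 2 bases beyond its ends. In RPPH1 105 of 277 G, A and C bases were called (37.9%), with 47.5% of C, 36.8% of G and 24.2% of A. Summed over the 105 sites, 4.68%, 4.43% and 4.36% of reads were T in imbalanced dNTP replicates 1 to 3. At the 67 of these sites that the balanced dNTP table also listed, the input held 0.142%, 0.144% and 0.150% T. Single sites ranged from 1.42% to 13.3% (mean of 3 libraries) with a median of 4.16%. The highest was the C at position 20343079, with 22 of 138, 17 of 138 and 21 of 181 reads as T under imbalanced dNTP and 0 of 260, 0 of 165 and 1 of 194 under balanced dNTP.

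SNHG1 (chr11:62851978-62855953, minus strand) is the host of a series of box C/D snoRNAs. All 72 of its called sites lay in RefSeq snoRNA genes, 45 in SNORD29 (chr11:62853904-62853968) and 27 in SNORD31 (chr11:62853326-62853393). In SNHG5 (chr6:85650491-85678932, minus strand) 43 of 44 called sites lay in SNORD50A (chr6:85677294-85677368). All 44 sites of SNHG5 were also inside a protein-coding gene on the same strand. All 3 intervals are inside exons of an annotated transcript of the host, and none of these sites was in an exon of its Ensembl canonical transcript. Positions inside snoRNA genes annotated by GENCODE had been left out, so any sites in those snoRNAs of the hosts were not counted. The called sites covered 45 of 50 G, A and C bases of SNORD29 (90.0%), 43 of 50 of SNORD50A (86.0%) and 27 of 48 of SNORD31 (56.2%). The 30-nt window of each snoRNA with most called bases, and that of RPPH1, show this density, again with called bases in capitals.
SNORD29, chr11:62853908-62853937, minus strand: ACCGACAGtGAAAAtACAtGAACACCtGAG
SNORD50A, chr6:85677318-85677347, minus strand: GAACCtGaACttCtGttGaAaAaAAAAAAC
SNORD31, chr11:62853342-62853371, minus strand: GCCCCaGtCtGAtCAAtGtGtGACtGaAaG
RPPH1, chr14:20343284-20343313, minus strand: GcGGCCctAacAggGCtctCCCtGaGCttC
In the SNORD29 window all 26 G, A and C bases were called, and the only lower case letters are T, which this method cannot read.

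Depth in the snoRNAs was the highest among the classes and the mutation ratios were low. SNORD29 had a median lowest depth of 1259 reads over the imbalanced dNTP libraries, SNORD50A 699 and SNORD31 246. Summed over the called sites, T made up 3.37%, 3.64% and 3.53% of SNORD29 reads, 3.43%, 3.46% and 3.37% of SNORD50A reads and 4.73%, 4.69% and 4.61% of SNORD31 reads in imbalanced dNTP replicates 1 to 3. The balanced dNTP libraries stayed between 0.0494% and 0.129% T at the called sites they listed. The calling criteria kept only sites above 3 times their input, so a lower T share in the input was set by the selection. Of the 45 sites in SNORD29 none reached a ratio of 10%, compared with 4 of 27 in SNORD31, 2 of 43 in SNORD50A and 7 of 105 in RPPH1. The highest ratio in SNHG5 lay 1 base beyond the 3′ side of SNORD50A, a G read as T in 14.9%, 13.8% and 18.9% of 316, 218 and 169 reads.

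The other snoRNA hosts had few called sites among the positions kept, from which those inside GENCODE snoRNA genes had been left out. SNHG17, host of the H/ACA box snoRNAs SNORA71A and SNORA71D that guide pseudouridylation, held 3 called sites in the former and 2 in the latter with ratios of 2.67% to 5.16%. Its sixth site was 1 base beyond the 3′ side of SNORA71D, a C read as T in 68.2%, 78.9% and 93.3% of only 22, 19 and 15 reads. SNHG25 had 1 called site in SNORD104. Of 30 annotated snoRNA host lncRNAs, 13 had listed imbalanced dNTP positions and 8 had called sites, 61.5% of those listed, against 17.4% (41 of 236) of all lncRNA genes with listed imbalanced dNTP positions. Only 105 of the 236 genes had a position deep enough to be called, while among the 13 hosts only SNHG11 and SNHG12 lacked one. The part of depth in this contrast was not tested. The called sites of SNHG1, SNHG5, SNHG17 and SNHG25 lay inside RefSeq snoRNA genes or 1 base beyond them, and those of SNHG14, SNHG29, DANCR and ZFAS1 lay outside. Within 100 nt of a small RNA gene lay 2 of 17 sites in SNHG14, 3 of 5 in SNHG29, 2 of 2 in ZFAS1 and 0 of 3 in DANCR. SNHG3, with 69 listed imbalanced dNTP positions, and SNHG22, with 21, had no called site.

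MIR663AHG (chr20:26167817-26251546, minus strand) is the host gene of MIR663A. Its 154 called sites lay within 1675 nt (chr20:26208041-26209715), 97 in exons and 57 in introns, and none in an exon of the canonical transcript. For 152 of them the surrounding sequence matched the 45S pre-rRNA of chromosome 21 in the sense direction at a median identity of 93.3%, and 16 were inside the MIR663A hairpin. T made up 6.20%, 6.19% and 6.28% of reads at the 152 sites in imbalanced dNTP replicates 1 to 3, and 0.485%, 0.559% and 0.334% in the input at those also listed there. Sites whose base equalled the matched pre-rRNA base (143) had a median ratio of 6.10% and reached 37.5%. The 9 sites whose base differed from it ranged from 26.1% to 96.0% with a median of 48.9%. At 8 of these 9 sites the matched base was G, A or C, and at only 1 was it T. At the site of 96.0%, an intronic C with 71 of 75, 52 of 52 and 86 of 92 reads as T, the matched pre-rRNA base is T, and the position was not listed under balanced dNTP. Whether these reads came from MIR663AHG or from the pre-rRNA was not tested.

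ENSG00000280441 and ENSG00000278996 on chromosome 21 span 45S pre-rRNA genes in their introns. All 22 called sites of the former lay in RNA45SN3 (18) or RNA45SN1 (4), and all 18 of the latter in RNA45SN2. Their lowest depth had a median of 24.5 reads, and T made up 16.29%, 15.96% and 14.83% of reads under imbalanced dNTP. At the 18 sites listed under balanced dNTP the input held 1.97%, 2.27% and 2.03% T, higher in every library than at the snoRNA or RNase P RNA sites. The balanced dNTP table listed far more positions here than the imbalanced one, 1612 against 228 in ENSG00000280441 and 1011 against 156 in ENSG00000278996.

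The other genes with matched sequence had few called sites. ENSG00000233891 had 8 called sites, all in an intron and all in sequence matching 45S pre-rRNA, with T in 10.2%, 9.56% and 9.75% of reads. LINC02694 had 5 and ENSG00000287614 had 3, all intronic and matching a structural RNA at median identities of 95.8% and 90.3%. The 5 called sites of ENSG00000290039 were inside the RefSeq snRNA gene LOC124904122 (chr17:58659149-58659305), and all 5 also lay inside a protein-coding gene on the same strand. None of the called sites of these 4 genes was listed under balanced dNTP, so the input ratio there was taken as 0 and its depth is unknown.

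**Figure D2:**
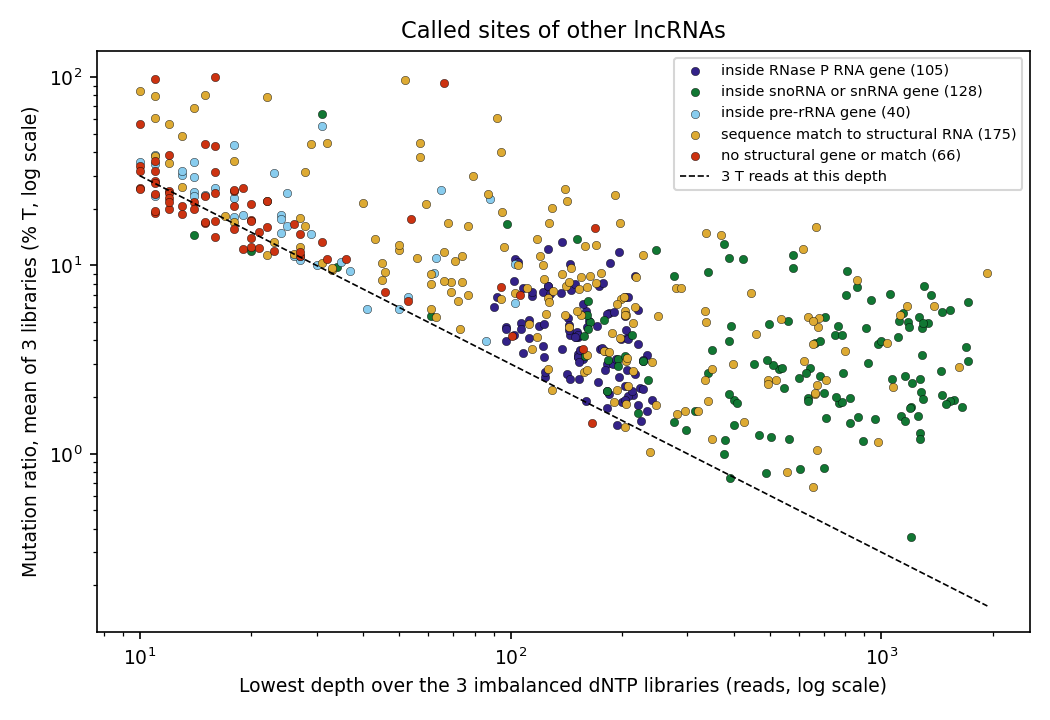
Each point is 1 of the 514 called sites, with the lowest depth of the 3 imbalanced dNTP libraries on the x axis and the mean mutation ratio on the y axis (log scales). snoRNA and snRNA sites lie mostly between 377 and 1148 reads (quartiles) at low ratios, and the 66 sites without a structural gene or match sit at a median of 17 reads near the dashed line that marks 3 reads with T at that depth.

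The 66 sites with neither a structural gene nor a match were in 24 genes, 41 in exons and 25 in introns. Their lowest depth had a median of 17 reads (quartiles 12 and 25.2), and 39 (59.1%) were under 20 reads. The median mutation ratio was 19.7%, and T made up 17.01%, 17.85% and 15.95% of summed reads in imbalanced dNTP replicates 1 to 3. The criteria set a floor on this ratio, since 3 reads with T at a depth of 19 already make 15.8%. A ratio of 30% from 3 of 10 reads has a 95% Wilson interval of 10.8% to 60.3%, and one of 3% from 30 of 1000 reads an interval of 2.11% to 4.25%, for counting error only. Of the 66 sites 12 were inside a protein-coding gene on the same strand, and 48 (72.7%) were G, 9 A and 9 C. Only 8 (12.1%) had another called site within 5 nt, compared with 103 of 105 in RPPH1 and 127 of 128 in snoRNA or snRNA genes.

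Of these 48 G sites 29 (60.4%) lay between U and U. A selection in 9 genes is printed, chosen after their values were seen, with the called G in capitals in the UGU context.
ENSG00000227088, intron, chr2:78196725-78196745, minus strand: attatagcttGtcgtttattc
ENSG00000227088, intron, chr2:78240919-78240939, minus strand: tggttactttGtcacactaat
ENSG00000232034, intron, chr2:100845658-100845678, plus strand: cagtgtctttGtgctgtgagc
ENSG00000230647, intron, chr17:14482345-14482365, plus strand: agattttactGtgctgttgaa
ENSG00000286811, intron, chr6:48109250-48109270, minus strand: tagtagccttGtgatgaataa
SNHG14, exon, chr15:25019113-25019133, plus strand: tactatttttGtagacgtcat
SNHG14, exon, chr15:25085824-25085844, plus strand: ccatacttttGttgtttttct
SNHG29, exon, chr17:16439738-16439758, plus strand: acgtagttttGtcacttgaat
ZFAS1, exon, chr20:49279209-49279229, plus strand: gtaagtctttGtctcctatgg
PURPL, exon, chr5:27477787-27477807, plus strand: gaatcgatctGtgaggtgagg
ENSG00000268981, intron, chr19:22694827-22694847, minus strand: ggagcgatttGtctggttaat
Among all G bases within 50 nt of the 66 sites 10.3% lay in UGU, and among listed but not called G positions of depth 10 or more in the same class 44.1% did.

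SNHG14 (chr15:24978583-25420336, plus strand), an imprinted transcript of the Prader-Willi and Angelman region that is expressed from the paternal allele, had 17 called sites, 16 in exons. None lay in a RefSeq snoRNA gene, but positions inside snoRNA genes annotated by GENCODE had been left out beforehand. Of the 17 sites 5 were inside a protein-coding gene on the same strand, 15 were G and 10 were in UGU. Their summed T share was 18.3%, 19.8% and 18.8% in imbalanced dNTP replicates 1 to 3. The highest was the G at position 25086450, with 5 of 15, 8 of 15 and 18 of 39 reads as T under imbalanced dNTP and 0 of 63, 0 of 45 and 1 of 60 under balanced dNTP. The UGU site at 25085834 held 13.6%, 20.0% and 18.9% T of 22, 20 and 37 reads. The short ENSG00000261069 (chr15:25087661-25088896) lies inside the SNHG14 span and had 4 further called sites.

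ENSG00000227088 (chr2:77652025-78290469, minus strand) had 5 called sites, all intronic G and 4 of them in UGU. Its site at 78240929 was T in 41.7%, 50.0% and 23.5% of 12, 14 and 17 reads, and none of the 5 was listed under balanced dNTP. ENSG00000232034 had 3 called sites, and ENSG00000230647 and ENSG00000286811 had 2 each, all intronic G, with lowest depths of 11 to 19 reads. All 3 sites of ENSG00000232034 and both sites of ENSG00000286811 were also inside a protein-coding gene on the same strand, and none of ENSG00000230647 was. Which transcript gave these reads was not tested. PURPL, a p53-induced lncRNA that lowers p53 levels, had 4 called sites in exons with summed T shares of 16.5%, 22.9% and 15.8%. SNHG29 had 5 exonic sites with 4.37%, 4.76% and 6.54% T and a median site ratio of 12.0%. Its C at position 16441225, with a mean ratio of 1.46%, had 283, 258 and 166 reads and weighed most in those shares. DANCR, a lncRNA first described as an inhibitor of differentiation, had 3 exonic sites with 8.24%, 17.2% and 10.7%. ZFAS1, a host of box C/D snoRNAs of the SNORD12 family, had 2 exonic UGU sites with 24.0%, 18.8% and 24.3%. The depths behind these shares were too low to order the genes.

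A few sites were read almost wholly as T. Of the 514 sites 15 had a mean ratio of 50% or more, and 14 of these were not listed under balanced dNTP, the exception being a C in RNA45SN2. The G of ENSG00000258028 was T in 20 of 20, 16 of 16 and 17 of 17 reads, the A of AGBL1-AS1 in 74 of 79, 77 of 81 and 59 of 66 and the G of LINC02196 in 12 of 12, 11 of 11 and 12 of 13.

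The other groups of lncRNAs had few listed genes, to be read beside the 17.4% (41 of 236) of listed genes with a called site over all lncRNAs. Only 105 of those 236 genes had a position deep enough to be called. Of 28 annotated nuclear and chromatin lncRNAs 4 had listed imbalanced dNTP positions (PVT1, LINC-PINT, NORAD and DLEU2), with 53 positions in all and no called site, but only 3 positions of PVT1 and 1 of LINC-PINT had the depth to be called. Of 26 liver and liver cancer lncRNAs 3 were listed and DANCR alone was called. Of 30 microRNA host lncRNAs 5 were listed and MIR663AHG alone was called, with 154 sites, and of 13 imprinted lncRNAs SNHG14 alone was listed. In PVT1, the lncRNA beside MYC, 20 positions were listed at median depths of 8, 7.5 and 11.5 reads, and 3 of them had a depth of 10 or more in every library.

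Exons and introns differed in depth, in called share and in mutation ratio. In the genes with listed imbalanced dNTP positions, exons spanned 1.30 Mb and introns 27.5 Mb. Exons held 2546 listed imbalanced dNTP positions and introns 5664, or 1956 and 206 per Mb. Median depth was 14, 13 and 19 reads in exons and 10, 9 and 14 in introns of imbalanced dNTP replicates 1 to 3, so exons were deeper in each library. The criteria called 371 exonic and 143 intronic sites, 25.6% of 1451 and 8.52% of 1679 listed positions of sufficient depth. Within the same depth these shares were close at 10 to 19 reads, 3.73% in exons and 3.34% in introns, and at 20 to 49 reads, 10.7% and 15.1%. From 50 to fewer than 200 reads they were 47.4% and 40.5%, and at 200 reads or more 73.3% of 240 and 47.1% of 51. Among positions with neither a structural gene nor a match, 41 of 826 exonic (4.96%) and 25 of 1137 intronic positions (2.20%) were called.

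Summed over the called sites, the mutation ratio was 4.28% ± 0.0628 (SD, n = 3) in exons and 7.86% ± 0.172 in introns, lower in exons in all 3 replicates by 3.58 percentage points (two-sided exact paired permutation p = 0.25, the smallest that 3 pairs allow). The groups did not overlap. The difference turned on the annotation. With the exons of the Ensembl canonical transcript alone, 24.1% in place of 72.2% of called sites were exonic and exons exceeded introns by 0.0505 percentage points. It also turned on which genes entered, and exons minus introns was -12.4 percentage points without matched sequence, -11.2 without MIR663AHG and -0.92 without structural RNA genes. Within MIR663AHG, the only gene with several sites in both, exons held 6.19%, 6.06% and 5.98% T and introns 6.25%, 6.36% and 6.60%. Among the sites with neither a structural gene nor a match, exons held 11.3% ± 0.127 and introns 38.3% ± 6.31 (exact paired permutation p = 0.25), and without the sites of 50% or more introns held 23.3% ± 2.91. Called sites had a median lowest depth of 193 reads in exons and 40 in introns, and of 20 and 12 reads in this class. The minimum of 3 reads with T sets a higher floor on the ratio at lower depth, and the part of depth in these differences was not tested.

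**Figure D3:**
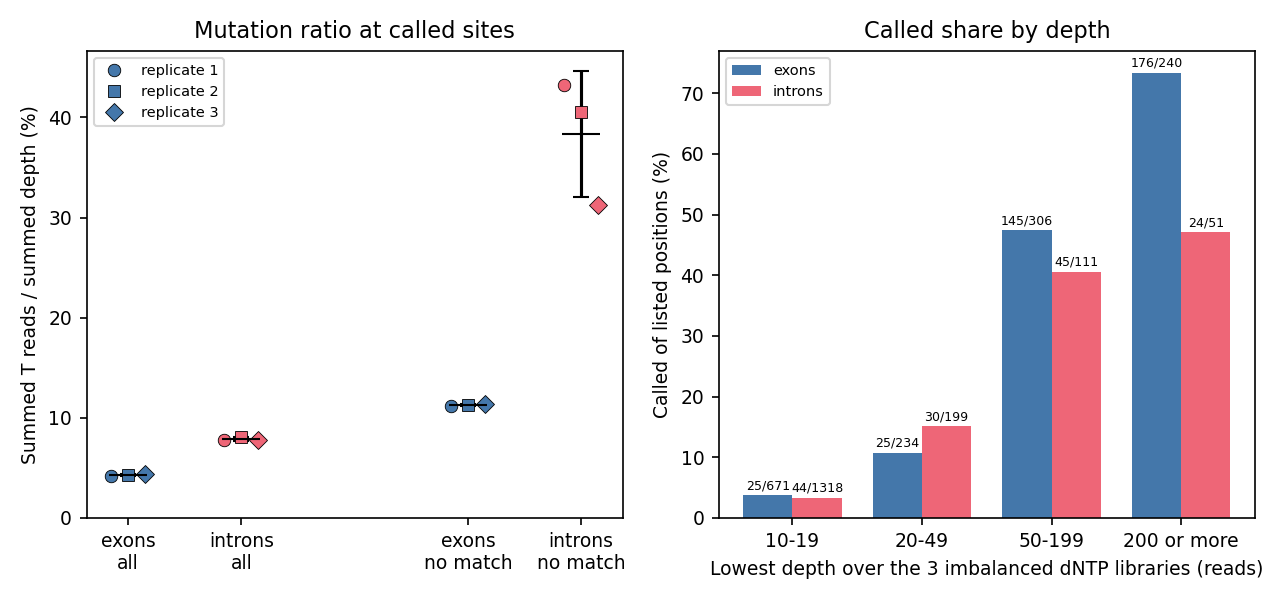
The left panel plots summed reads with T over summed depth (%) at called sites of exons and introns, with a marker per replicate and the mean ± SD, for all 514 sites and for the 66 with neither a structural gene nor a match. The right panel plots the share of listed positions that were called by lowest depth, with called and listed numbers above the bars, and the shares stay within a few percentage points between exons and introns below 50 reads.

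G was the most frequent base among the 514 called sites with 225 (43.8%), followed by C with 186 (36.2%) and A with 103 (20.0%). The G, A and C bases within 50 nt of these sites were 38.6% G, 35.02% C and 26.42% A. The classes differed among themselves. G made up 27.3% of the sites in snoRNA or snRNA genes, where A made up 39.8%, then 40.0% in RPPH1, 47.5% in pre-rRNA genes and 72.7% of the sites with neither, against 35.3% G around the latter. Of listed but not called positions of sufficient depth in that class 58.0% were G. The mutation ratio was highest at G, 6.20% ± 0.0982, then 4.92% ± 0.222 at C and 3.27% ± 0.0654 at A (SD, n = 3), with the same order in all 3 replicates (exact paired permutation p = 0.25 for each of the 3 pairs of bases, 0.25 after Benjamini-Hochberg adjustment). This order mixes classes of different level and composition. Among the sites with neither a structural gene nor a match, A held 22.3%, 23.6% and 17.3% T, G 19.1%, 19.8% and 17.5% and C 7.65%, 8.99% and 9.91%, so that A exceeded G in replicates 1 and 2, from 9 A sites. With a ratio of at least 10% required in every replicate the order of all sites reversed and G was below C and A.

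The UGU context was not limited to called sites. In each library the listed G positions with 3 or more reads with T were taken, 1345 to 2590 under imbalanced and 91 to 151 under balanced dNTP. In lncRNA introns 45.8%, 44.8% and 44.6% of these lay in UGU in imbalanced dNTP replicates 1 to 3, and 3.54%, 4.69% and 7.07% under balanced dNTP. In exons the shares were 35.3%, 35.2% and 33.1% against 2.63%, 3.70% and 6.45%, the latter from only 38, 27 and 31 positions. Without the 6 genes with most called sites the share was 49.6% ± 1.91 under imbalanced and 11.4% ± 3.65 under balanced dNTP. It was higher under imbalanced dNTP in 3 of 3 pairs (exact paired permutation p = 0.25), with only 40, 33 and 34 positions under balanced dNTP. In the whole series it was 34.5% ± 0.310 against 9.81% ± 1.16. In SNHG14 50.6% of all listed imbalanced dNTP G positions and 17.99% of all listed balanced dNTP G positions lay in UGU.

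**Figure D4:**
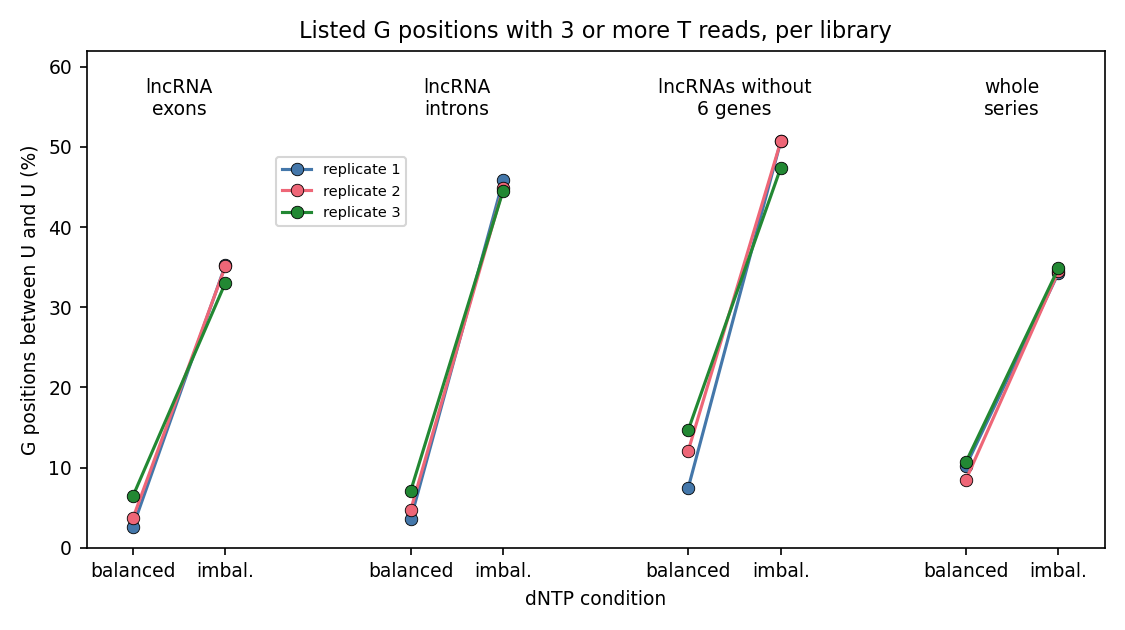
The y axis gives the share (%) of listed G positions with 3 or more reads with T that lie between U and U, for each library, with a line joining the balanced and the imbalanced dNTP library of a replicate. In lncRNA exons, in lncRNA introns, in lncRNAs without the 6 genes with most called sites and in the whole series, all 3 lines rise.

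Between the conditions, the T share at the 1081 positions listed in both tables was 4.35%, 4.37% and 4.73% in imbalanced dNTP replicates 1 to 3 and 0.660%, 0.705% and 0.802% in the matched balanced dNTP libraries. The mean difference was 3.76 ± 0.144 percentage points, in the same direction in 3 of 3 pairs (exact paired permutation p = 0.25). The listing rule, with its higher minimum under imbalanced dNTP, pushes this difference the same way. Other mismatches ran the opposite way, 0.601% ± 0.0385 under imbalanced and 0.843% ± 0.0460 under balanced dNTP.

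The ratio of reads with T to other reads was tested at each position with edgeR's quasi-likelihood test. The test covered the 32284 positions of the series listed in both tables with a depth of 10 or more in all 6 libraries. The listing rule, with its higher minimum of reads with T under imbalanced dNTP, favours higher over lower positions. The numbers higher and lower are therefore partly set by that rule. Of 776 lncRNA positions 385 (49.6%) were higher under imbalanced dNTP and 4 lower at an adjusted p below 0.05, while 73.9% of all tested positions were higher and 0.0558% lower. With replicate 1, 2 or 3 left out, 215, 244 and 211 lncRNA positions were higher. The median log2 change was 2.92 over the lncRNA positions and 3.94 over all. By class, 116 of 121 positions in snoRNA or snRNA genes, 115 of 129 in RPPH1, 81 of 190 in matched sequence, 42 of 184 in pre-rRNA genes and 31 of 152 with neither were higher. By location, 312 of 448 exonic (69.6%) and 73 of 328 intronic positions (22.3%) were higher. All listed imbalanced dNTP positions of ENSG00000259001, SNHG1 and SNHG5 were exonic, and 118 of 133, 68 of 75 and 41 of 41 tested there were higher. Location was thus mixed with the class of structural RNA. The median lowest depth of the called sites was 670 reads in the snoRNA or snRNA genes, 24.5 in the pre-rRNA genes and 17 in the sites with neither, and the part of depth in these shares was not tested. The largest fitted change was at a G of SNORD50A in SNHG5 (position 85677363), T in 91 of 775, 79 of 679 and 62 of 579 reads against 0 of 1385, 1 of 854 and 0 of 714 (log2 change 8.02, SE 0.51, edgeR adjusted p = 8.85e-55).

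All 4 positions that were lower lay in pre-rRNA or pre-rRNA-like sequence, 3 in MIR663AHG and 1 in ENSG00000278996. At the C of MIR663AHG at position 26209403, T was found in 5 of 332, 0 of 333 and 2 of 509 reads under imbalanced dNTP and in 7 of 102, 5 of 53 and 7 of 82 under balanced dNTP (log2 change -3.77, SE 0.84, edgeR adjusted p = 1.59e-05).

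**Figure D5:**
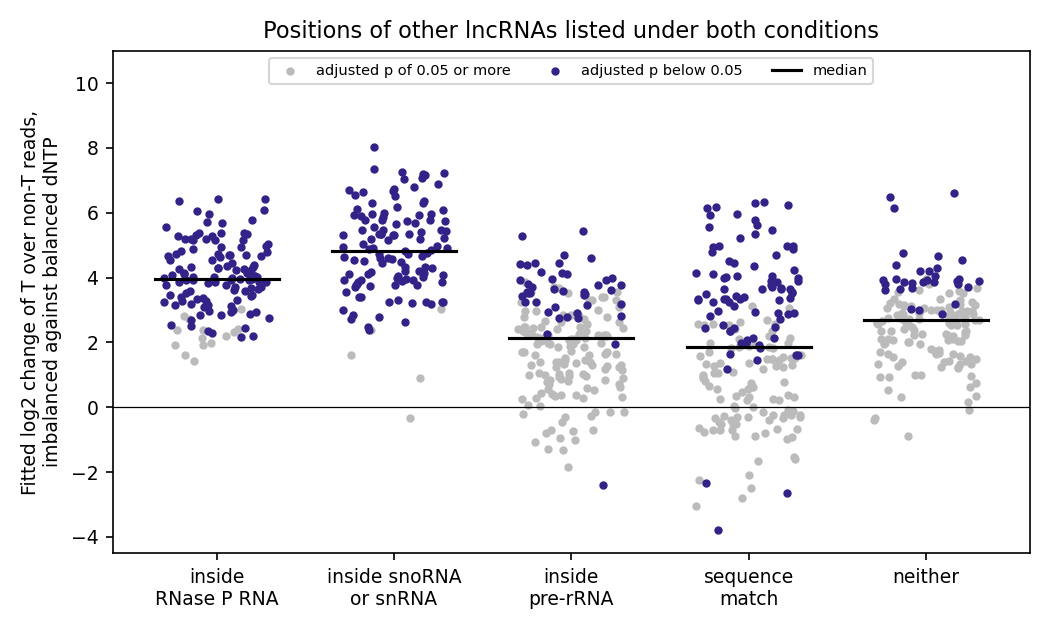
Each point is 1 of 776 lncRNA positions tested, with the fitted log2 change of reads with T over other reads, imbalanced against balanced dNTP, on the y axis and the class of its location on the x axis. Dark points passed an adjusted p of 0.05 and bars are class medians, which run from 1.87 in matched sequence to 4.83 in snoRNA or snRNA genes.

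NEAT1 and MALAT1, the nuclear lncRNAs set aside above, gave a reference for density and level. Called sites covered 65.7% of the G, A and C bases of NEAT1 and 55.6% of those of MALAT1, below SNORD29 and SNORD50A and above RPPH1. SNORD31, at 56.2%, lay between NEAT1 and MALAT1. Depth differed too, with median lowest depths at called sites of 308 reads in NEAT1, 549.5 in MALAT1, 1259 in SNORD29, 699 in SNORD50A, 246 in SNORD31 and 157 in RPPH1. The part of depth in this order was not tested. At their 14333 called sites T made up 3.73%, 3.93% and 3.62% of reads, against 4.72%, 4.83% and 4.99% at the 514 other lncRNA sites. The difference was 1.08 ± 0.247 percentage points in 3 of 3 pairs (exact paired permutation p = 0.25). Its size depended on the sites that entered, 0.16 percentage points without matched sequence, 0.54 without MIR663AHG and 3.19 without structural RNA genes. The snoRNA and snRNA sites of the other lncRNAs held 3.57%, 3.71% and 3.61%, a difference from NEAT1 and MALAT1 that was not tested, and the sites with neither a structural gene nor a match held 16.9% ± 0.949 at much lower depth (median 17 against 346 reads).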

How the data were processed

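Nm-mut-seq libraries of HepG2 caRNA (3 under imbalanced and 3 under balanced dNTP) were sequenced as single-end reads of 100 nt. Following the methods of the study, the authors trimmed reads with Cutadapt, removed duplicates by molecular identifier with BBMap, aligned to hg38 with TopHat2 (up to 3 mismatches and 4 alignments per read) and called mismatches with JACUSA. Tool versions were not given in the sources used here. The deposited values are raw read counts per base (depth and reads with T) at each listed position, and a JACUSA score that was not used. A position that a table does not list has no known depth in that condition. Multiple alignments can place reads of repeated RNAs on lncRNA genes.

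Members and gene lists were chosen with earlier results of these data known. Positions were assigned to genes of GENCODE v44, an exon being that of any transcript, and to RefSeq structural RNA genes, and windows of 50 nt on either side were compared with structural RNAs by BLAST+ 2.17.0+ (at least 85% identity over 50 nt). Named were the 20 genes with most called sites and up to 3 members of each list. Sites were called at a depth of 10, with 3 reads with T and 3 times the input, an unlisted input being taken as 0. The spike-in criterion of the study was not applied. Library means were compared by an exact two-sided paired permutation test over 3 pairs, whose smallest p is 0.25. Counts of reads with T and of other reads were fitted with edgeR 4.0.16 (quasi-likelihood, R 4.3.3), with library and replicate terms and Benjamini-Hochberg adjustment over 32284 positions. On simulated data with 200 changed positions this test recovered 62% of log2 increases of 2, 86% of increases of 3, 54% of decreases of 2 and 78% of decreases of 3, and called 0.00935% of unchanged positions. The simulated counts did not pass through the listing rule of the tables. Changes were placed only at positions above a minimum expected number of reads with T, and all counts were drawn with a common dispersion. These rates therefore need not hold at lncRNA positions of low depth. Replicate numbers pair the libraries, since both reactions of a number used the same ligated RNA. Deviations of same-numbered libraries correlated at 0.746, 0.590 and 0.871 over 24432 positions, and those of imbalanced 1 with balanced 2 and imbalanced 2 with balanced 1 at 0.699 and 0.599, so the correlations do not tell pairs 1 and 2 apart. Alternatives were other depth, ratio and input criteria, other exon definitions, DESeq2 1.42.0, no replicate block, each replicate left out, and sets without structural RNA. Those without structural RNA genes or without MIR663AHG were chosen after seeing the data. Intervals cover counting error only.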

Additional observations from a re-analysis of the deposited data

How the results depend on the processing

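Of 179 values recomputed under another setting, 5 differences reversed and 44 counts or shares moved by over 1.5 times or beyond the spread between replicates. The other 130 were counts and shares that stayed within these limits and differences that kept their direction, whatever their size. The number of called sites (514) was 238 with a mutation ratio of at least 0.05 and 132 with at least 0.1 in every replicate, 257 with only positions listed under balanced dNTP, 240 without matched sequence, 241 without structural RNA genes and 638 to 837 with 1 replicate left out. Genes with called sites (41) numbered 15 at a depth of 50, 14 with only positions listed under balanced dNTP and 54 to 70 with 1 replicate left out. In the same order of settings (depth 50, ratio 0.05, ratio 0.1, listed under balanced dNTP, without matched sequence, without structural RNA genes), the exonic share was 82.3%, 55.0%, 42.4%, 85.2%, 88.8% and 58.1%, the share of G 38.2%, 54.6%, 59.8%, 38.9%, 42.1% and 53.5%, and the share in UNU 8.21%, 22.3%, 29.5%, 6.61%, 17.9% and 17.4%. The exonic share was 24.1% with canonical transcripts. Without MIR663AHG the share of G was 42.5% and that in UNU 16.4%, and without protein-coding overlaps the share in UNU was 10.4%. With 1 replicate left out these shares ran from 58.9% to 67.6%, from 46.2% to 51.6% and from 16.9% to 22.3%. The difference between exons and introns reversed to 0.0505 percentage points with canonical transcripts. At a ratio of at least 0.05 the difference of C minus A reversed to -0.0345 percentage points. At a ratio of at least 0.1, G minus A was -19.6, G minus C -7.89 and C minus A -11.7. Several differences kept their direction but changed by over 1.5 times. Exons minus introns (-3.58 percentage points) was -12.4 without matched sequence, -11.2 without MIR663AHG, -10.1 at ratio 0.1 and -0.92 without structural RNA genes. Other lncRNAs minus NEAT1 and MALAT1 (1.08) was 0.16 without matched sequence, 0.54 without MIR663AHG, 0.67 with only positions listed under balanced dNTP, 2.04 at ratio 0.05, 2.56 as the median of site ratios, 3.19 without structural RNA genes and 7.84 at ratio 0.1. G minus A (2.92) was 1.47 at ratio 0.05 and 1.88 without structural RNA genes, where G minus C (1.28) was 0.85 and C minus A (1.65) was 1.03, and C minus A was 0.65 without matched sequence and 0.85 without MIR663AHG. Imbalanced minus balanced dNTP (3.76) was 6.06 as the median of position ratios. Fewer sites enter under the ratio criteria, and the cause of the reversals was not tested.

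Without the replicate block, edgeR found 455 lncRNA positions higher in place of 385, and pooling the input over replicates called 541 sites in 40 genes, each within 1.5 times the paired value. Fisher's exact test in every replicate gave 176 positions, leaving out 1 replicate 211 to 244, and leaving out structural RNA genes 112 of 342 tested. Depth limits the sites outside structural RNA, of which 59.1% had fewer than 20 reads in their lowest library, and 257 called sites had no input count.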
